A study of Mus musculus with 8 samples.

Results

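The BCL2 family comprises the proteins that decide whether the outer mitochondrial membrane is opened during apoptosis, and 10 of its genes were examined: Bcl2, Bcl2l1, Bcl2l2, Mcl1, Bax, Bak1, Bad, Bid, Bcl2l11 and Bnip3. They were found as every non-control probe that carries 1 of these gene names on the array, which gave 20 probes of 41174 and 10 gene names of 27573. The cells, grown in culture from BALB/c mice, were lymph node stromal cells, the fibroblast-like cells that form the scaffold of a lymph node. They received 400 pmol of siRNA against Eif4g3, a scaffold protein of translation initiation, or the same amount of a control siRNA, with Lipofectamine 2000, the medium was changed after 24 h, and cells were collected 48 h after transfection. RNA came from the whole lysate (total RNA) or from the pooled heavy polysome fractions of a sucrose gradient, which hold mRNAs loaded with many ribosomes, and 200 ng was labelled for each channel. There were 4 groups: control siRNA and Eif4g3 siRNA, each as total RNA and as heavy polysome RNA, with 4 samples a group on 8 arrays. On every array the Eif4g3 siRNA sample was labelled with Cy5 and the matching control siRNA sample with Cy3, and no array had the dyes swapped. The design text gives 7 plates per siRNA, with cells pooled before the gradient. Nothing in the labels says that replicates are separate cultures, so p-values here measure the spread between these samples only, which may be technical.

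In healthy cells the pro-survival members BCL2, BCL-XL (encoded by Bcl2l1), BCL-W (Bcl2l2) and MCL1 hold the effectors BAX and BAK in check. BH3-only proteins such as BAD, BID and BIM (Bcl2l11) are switched on by stress and bind the pro-survival proteins or activate the effectors, which then form pores that release cytochrome c and lead to caspase activation. BNIP3 is an atypical BH3 protein of mitochondria, induced by low oxygen and known for its part in mitophagy. MCL1 is a short-lived protein, and its amount depends closely on ongoing translation.

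Values give the Eif4g3 siRNA signal over that of control siRNA on a log2 scale, normalised within each array, so that 0 means equal signal and 1 a doubling. A gene is represented by its brightest probe and was tested where that probe gave signal well above background, in either channel, on 3 or more of a fraction's 4 arrays. This left 14474 genes, among them all 10 members, and 18 of the 20 member probes. "Called" means an adjusted p below 0.05 in limma, with adjustment over all tested genes. The ratio of Eif4g3 itself was -1.81 or lower on all 8 arrays, with its lowest values of -2.48 on total RNA array 1 and -3.16 on heavy polysome array 1. The targeted transcript was therefore lower in the Eif4g3 siRNA cells on every array, 4.20-fold in total RNA (adjusted p = 0.00197, limma) and 5.49-fold in heavy polysome RNA (adjusted p = 6.07e-04, limma). Total RNA array 4 and heavy polysome arrays 1 and 3 stood apart from the rest, with mean correlations to the other arrays of their fraction of 0.327, 0.289 and 0.318 against 0.410 to 0.566 elsewhere, so member values on them are named below. Heavy polysome arrays 2 and 4 were the most alike of all arrays, with a correlation of 0.883, and an alternative fit given below takes them as 1 replicate. All 14 markers of fibroblastic stroma were tested and thus had signal, while Ptprc, the pan-leukocyte marker, Cdh1, the epithelial cadherin, and Pecam1, the endothelial adhesion molecule, were not well above background on any array. Of 12 macrophage markers 8 were tested, Csf1r was lower in total RNA, Trem2 was lower in heavy polysome RNA, Adgre1, C1qa, Itgam and Tyrobp were never above background, and the log2 summed signal of the list ran from 10.57 to 11.72 in Cy3 and from 9.98 to 11.28 in Cy5. Of the stromal markers Col1a2 was lower in total RNA; heavy polysome RNA had 1 higher and 4 lower; their summed signal ran from 17.57 to 18.00 in Cy3 and from 17.41 to 17.96 in Cy5. In such bulk samples, fewer cells of a type and less RNA per cell cannot be told apart, and the part of these shifts in the member values was not tested.

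Of the 10 members, 1 was called in total RNA, where 4.37% of all tested genes were, and 1 in heavy polysome RNA, where 8.91% were. Both calls were for Bcl2l1, which was higher after Eif4g3 siRNA. The share of members called is thus close to the background in heavy polysome RNA, and a single call sets the family apart in neither fraction. The median ratio of the members was -0.17 on the total RNA and 0.07 on the heavy polysome side, against -0.04 and 0.02 for all tested genes. By role, the 4 pro-survival genes had medians of -0.20 and -0.04, both effectors together -0.34 and 0.01, and the 4 BH3-only genes 0.03 and 0.13. The plot of members by array shows that Bcl2l1 was the only member whose representative probe lay above 0 on all 8 arrays, which 6.15% of all genes did.

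**Figure D1:**
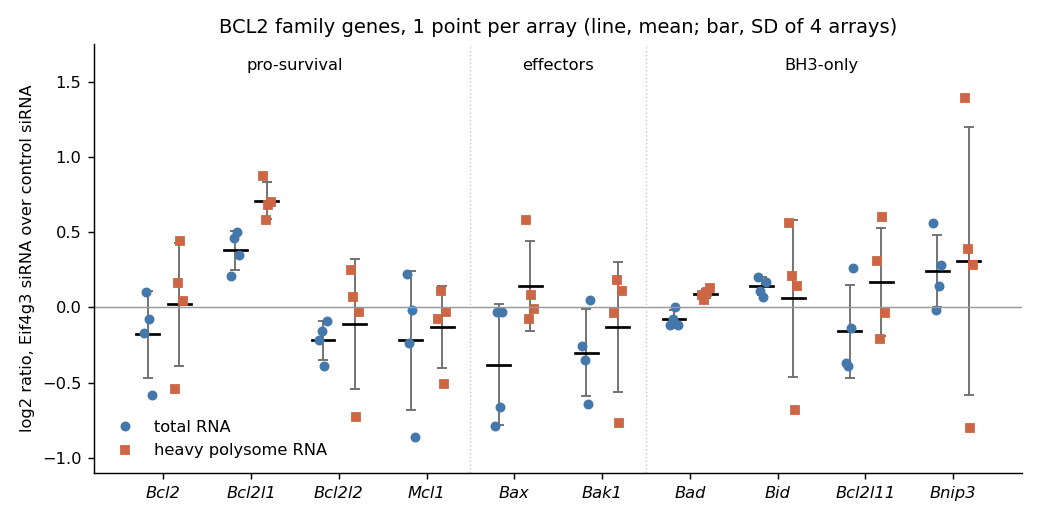
Log2 ratio of Eif4g3 siRNA over control siRNA (y axis) for the 10 BCL2 family genes (x axis, ordered by role), with 1 point per array for total RNA (circles) and heavy polysome RNA (squares), black lines at the mean and bars of 1 SD over 4 arrays. Bcl2l1 lies between 0.21 and 0.87 on all arrays, while the other members have arrays on both sides of 0 or close to it, with the widest spread for Bnip3 in heavy polysome RNA (-0.80 to 1.39).

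Bcl2l1 encodes BCL-XL, a pro-survival protein of the mitochondrial membrane. RefSeq lists 3 transcription starts for it on GRCm38.p6. Bcl2l1 was taken for printing because it was the only member called. STAT factors, which are on the list of regulators described further on, are known to act on this gene. Of the 3 starts, the 1 printed was picked because its sequence alone holds a match to a form of the STAT motif. The window chr2:152828484-152828739, on the minus strand, covers 250 bases before the start and 6 after it, and the capitals mark TTC and GAA separated by 4 bases, a form of the STAT motif:

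Bcl2l1: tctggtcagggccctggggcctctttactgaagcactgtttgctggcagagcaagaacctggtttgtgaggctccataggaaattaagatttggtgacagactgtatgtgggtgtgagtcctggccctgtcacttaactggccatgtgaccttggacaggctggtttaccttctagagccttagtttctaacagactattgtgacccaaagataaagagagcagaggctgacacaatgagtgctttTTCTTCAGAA

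The motif was searched as TTC and GAA with 3 or with 4 bases between them; either form reads the same on both strands, and a match to one is no match to the other. Among the 14 RefSeq windows of the 10 members (250 bases before to 50 after a start), the form with 4 bases between occurred in the window printed above and in none of the other 13, and the form with 3 in none. Of all 32851 mouse windows of that length, 6.95% hold the form with 4 bases between and 8.3% that with 3. The match is a description of these letters. Binding of Stat3 or any other STAT factor to it was not tested, and the form with 3 bases between was absent from every Bcl2l1 window. The array probes do not show which start was used.

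The brightest probe of Bcl2l1, A_52_P148861, maps to chr2:152472336-152472395 (mm8, minus strand) and is printed as 10 spots on each array. Given here and throughout in the order of arrays 1 to 4, it read 0.21, 0.46, 0.50 and 0.35 on the total RNA arrays and 0.87, 0.58, 0.68 and 0.70 on the heavy polysome arrays. All 8 arrays were above 0, and the lowest heavy polysome array was above the highest total RNA array, an order found for 2.38% of all genes. The mean was 0.38 ± 0.13 (SD, n = 4) in total RNA, a 1.30-fold higher level (adjusted p = 0.0447, limma), and 0.71 ± 0.12 (SD, n = 4) in heavy polysome RNA, a 1.63-fold higher level (adjusted p = 0.00357, limma). Among all tested genes Bcl2l1 ranked between the 76.5th and the 97.7th percentile of the ratios on each array. The call in heavy polysome RNA held when any 1 array was left out (adjusted p = 0.00464 to 0.0264). The call in total RNA needed each of the 4 total RNA arrays and was also lost without heavy polysome array 2 or 4 (adjusted p = 0.0756 to 0.170), although the mean then stayed between 0.34 and 0.44. With arrays centred on the median of all non-control spots in place of loess, the total RNA ratio of Bcl2l1 was -0.51, against a median of -0.78 over all tested genes, which leaves it 0.27 above that median.

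Both other Bcl2l1 probes, which lie on the same strand and further towards the 5′ end of the gene, gave lower ratios. A_52_P510877 (chr2:152520890-152520949, mm8), 48554 bases upstream and 1 spot per array, read -0.52, -0.37, -0.11 and -0.31 on the total RNA arrays and -0.05, 0.05, 0.04 and -0.13 on the heavy polysome arrays. Its means were -0.32 ± 0.17 (SD, n = 4; adjusted p = 0.0690 in limma over 21397 tested probes) and -0.02 ± 0.08 (SD, n = 4; adjusted p = 0.907). It thus read below the brightest probe on 8 of 8 arrays, by 0.71 ± 0.10 (SD, n = 4) in total RNA and 0.73 ± 0.17 (SD, n = 4) in heavy polysome RNA. A_51_P299454 (chr2:152521435-152521494, mm8) had means of -0.10 ± 0.32 and -0.23 ± 0.52 (SD, n = 4 each), with its arrays on both sides of 0. With the 3 probes averaged, Bcl2l1 came to -0.01 in total RNA (adjusted p = 0.942, limma) and 0.15 in heavy polysome RNA (adjusted p above the threshold), so both calls rest on 1 probe. As Cy5 always carried the Eif4g3 siRNA sample, a probe's own preference for 1 dye and a change of its transcript cannot be told apart within a fraction.

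Heavy polysome minus total RNA was 0.33 for the brightest Bcl2l1 probe (95% interval 0.05 to 0.60), 0.30 for A_52_P510877 (0.02 to 0.58) and -0.13 for A_51_P299454 (-0.72 to 0.45). None of these differences passed the threshold over all genes or probes, and the probes did not all share a direction. Whether the probes prefer 1 dye was not tested. The plot of Bcl2l1 and Bcl2 by probe shows their values on each array.

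**Figure D2:**
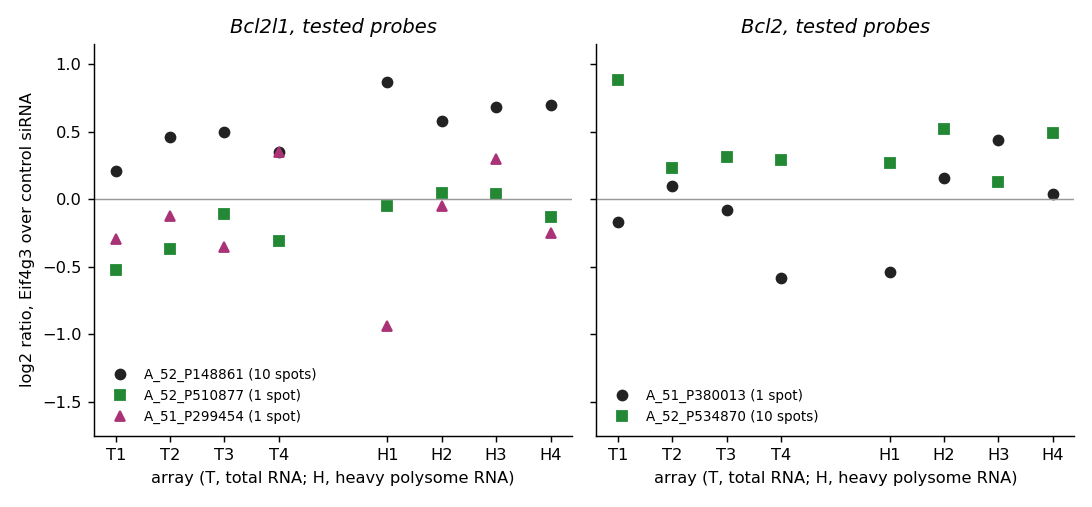
Log2 ratio (y axis) on each array (x axis; T1 to T4, total RNA; H1 to H4, heavy polysome RNA) for the tested probes of Bcl2l1 (left) and Bcl2 (right), with 1 symbol per probe. The brightest Bcl2l1 probe lies above A_52_P510877 on all 8 arrays, and the Bcl2 probe printed 10 times lies above 0 on all 8 arrays (0.13 to 0.88).

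Bcl2, the founding pro-survival gene of the family, also had probes that differed. Its brightest probe, A_51_P380013 (chr1:108539940-108539999, mm8), read -0.17, 0.10, -0.08 and -0.58 on the total RNA arrays and -0.54, 0.16, 0.44 and 0.04 on the heavy polysome arrays. The arrays lay on both sides of 0 in both fractions, with means of -0.18 ± 0.29 and 0.02 ± 0.41 (SD, n = 4 each; adjusted p = 0.551 and 0.947, limma). The other tested probe, A_52_P534870 (chr1:108365763-108365822, mm8), targets another transcript of the gene, lies 174177 bases downstream and is printed 10 times. It read 0.88, 0.23, 0.31 and 0.29 on the total RNA arrays and 0.27, 0.52, 0.13 and 0.49 on the heavy polysome arrays. All 8 arrays were above 0, but the means of 0.42 ± 0.30 and 0.35 ± 0.19 (SD, n = 4 each) did not pass the threshold (adjusted p = 0.0827 and 0.109, limma over probes). With loess fitted within 16 blocks of each array, an alternative described below, both passed it, at 0.42 (adjusted p = 0.0405) and 0.37 (adjusted p = 0.0474). The remaining Bcl2 probe was not well above background on any array and was not tested.

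Bcl2l2 encodes BCL-W, a pro-survival relative of BCL-XL. It read -0.22, -0.16, -0.39 and -0.09 on the total RNA arrays and 0.25, 0.07, -0.73 and -0.03 on the heavy polysome arrays. The total RNA arrays were all below 0, and heavy polysome array 3, an array that stood apart, was the lowest. The means were -0.22 ± 0.13 and -0.11 ± 0.43 (SD, n = 4 each) and were not called (adjusted p = 0.421 and 0.684, limma). Its second probe was near 0, at 0.01 ± 0.22 and 0.07 ± 0.11 (SD, n = 4 each).

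Mcl1 read 0.22, -0.24, -0.02 and -0.86 on the total RNA arrays and -0.08, 0.11, -0.51 and -0.03 on the heavy polysome arrays. The lowest value of each fraction again came from total RNA array 4 and heavy polysome array 3. Means of -0.22 ± 0.46 and -0.13 ± 0.27 (SD, n = 4 each) did not pass the threshold (adjusted p = 0.475 and 0.678, limma). The second Mcl1 probe, 1312 bases away on the transcript's strand, had the same lowest arrays, -0.87 and -0.58, and means of 0.17 ± 0.76 and 0.20 ± 0.56 (SD, n = 4 each). The difference between fractions was 0.10 for Mcl1, with a 95% interval from -0.43 to 0.62. With 4 arrays a fraction, the values are thus compatible with a difference of either sign within that interval.

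Bax and Bak1 encode the effectors that form the pore. Bax, read by 1 probe printed 10 times on the minus strand of chromosome 7, gave -0.79, -0.03, -0.66 and -0.03 on the total RNA arrays and 0.58, -0.08, 0.08 and -0.01 on the heavy polysome arrays. Total RNA arrays 1 and 3 were low and arrays 2 and 4 near 0, and in heavy polysome RNA array 1 was high and the others near 0. The means were -0.38 ± 0.40 and 0.14 ± 0.30 (SD, n = 4 each; adjusted p = 0.199 and 0.616, limma). The difference between fractions, 0.52, had a 95% interval from 0.02 to 1.02 and an adjusted p of 0.847 in limma.

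Bak1 read -0.26, -0.35, -0.64 and 0.05 on the total RNA arrays and -0.04, 0.18, -0.77 and 0.11 on the heavy polysome arrays. Of the total RNA arrays 3 were below 0, and heavy polysome array 3 was far below the others. Its means were -0.30 ± 0.29 and -0.13 ± 0.43 (SD, n = 4 each; adjusted p = 0.314 and 0.661, limma). The second Bak1 probe gave 0.06 ± 0.19 and 0.11 ± 0.14 (SD, n = 4 each), so the probes did not share a direction. Without total RNA array 4 and heavy polysome arrays 1 and 3, the share of all genes called in total RNA went from 4.37% to 21.9%, and the number of members called from 1 to 4. Bax (-0.49, adjusted p = 0.0369), Bak1 (-0.42, adjusted p = 0.0173) and Bcl2l11 (-0.30, adjusted p = 0.0391) were then lower and Bcl2l1 higher (limma).

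Among the BH3-only genes, Bid, whose product links death receptors to mitochondria, read 0.20, 0.11, 0.07 and 0.17 on the total RNA arrays and 0.56, 0.21, -0.68 and 0.14 on the heavy polysome arrays. Only heavy polysome array 3 was below 0. The means were 0.14 ± 0.06 and 0.06 ± 0.52 (SD, n = 4 each; adjusted p = 0.677 and 0.865, limma).

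Bcl2l11 encodes BIM, a strong activator of apoptosis controlled by growth factor signalling. Its brightest probe read -0.37, -0.39, -0.14 and 0.26 on the total RNA arrays and 0.31, -0.21, 0.60 and -0.04 on the heavy polysome arrays, so that total RNA array 4 was the only one above 0 in its fraction. The means were -0.16 ± 0.31 and 0.17 ± 0.36 (SD, n = 4 each; adjusted p = 0.581 and 0.539, limma). A second probe, A_51_P484880, whose mapped interval (chr2:127838598-127849693, mm8) is much longer than the probe itself, gave 0.20 ± 0.22 and 0.25 ± 0.20 (SD, n = 4 each; adjusted p = 0.316 and 0.192, limma over probes). The remaining probe was not well above background on any array.

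Bnip3 read 0.56, -0.02, 0.14 and 0.28 on the total RNA arrays and 1.39, 0.39, -0.80 and 0.28 on the heavy polysome arrays. It had the widest spread of the members, with heavy polysome arrays 1 and 3 at opposite ends. Means of 0.24 ± 0.24 and 0.31 ± 0.89 (SD, n = 4 each) were not called (adjusted p = 0.656 and 0.507, limma).

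Bad, which encodes a BH3-only protein controlled by phosphorylation, is the member whose identity on the array is least sure. Its brightest probe, A_52_P614762 (chr19:7018148-7018207, mm8), maps to the minus strand, whereas the other Bad probe and the RefSeq gene lie on the plus strand, and it is the only 1 of the 20 member probes that does not match the strand of its gene. It read -0.12, -0.08, 0.00 and -0.12 on the total RNA arrays and 0.08, 0.05, 0.10 and 0.13 on the heavy polysome arrays (means -0.08 ± 0.06 and 0.09 ± 0.03, SD, n = 4 each; adjusted p = 0.590 and 0.506, limma). The lowest heavy polysome array was thus above the highest total RNA array, an order found for 2.38% of all genes. The difference between fractions was 0.17, with a 95% interval from -0.07 to 0.40, and was not called (adjusted p = 0.847, limma). The plus-strand probe, A_51_P419364 (chr19:7009172-7009231, mm8), was dim. It read -0.32, -0.08, -0.40 and -0.19 on the total RNA arrays and 0.13, 0.02, -0.19 and -0.08 on the heavy polysome arrays, with means of -0.25 ± 0.14 and -0.03 ± 0.14 (SD, n = 4 each). In total RNA its Cy5 channel was not well above background on any of the 4 arrays, so its level after Eif4g3 siRNA is known there only as an upper limit. Its mean log2 signals were 6.43 in Cy5 and 6.68 in Cy3, and the ratio of -0.25 (95% interval -0.45 to -0.05) was not called (adjusted p = 0.145, limma over probes).

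No member was called for the difference between fractions, and no gene was among all 14474 tested in limma (0%). At an unadjusted p under 0.05, 2 members, Bcl2l1 and Bax, and 755 of all genes (5.22%) differed. Member differences ran from -0.08 for Bid to 0.52 for Bax with a median of 0.17, against 0.06 for all tested genes. The widest 95% interval was that of Bnip3, -0.77 to 0.92, and the narrowest that of Bad.

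Where the members' mRNAs lay without knockdown was read from the Cy3 channel alone, as log2 signal in heavy polysome RNA minus that in total RNA of control siRNA cells. Equal amounts of RNA were labelled, so the difference is relative to all RNA of a fraction. None of the 10 members was called, against 2.33% of all genes, and 1 member, Bad, had an unadjusted p under 0.05 (12.4% of all genes). For Bnip3 the Cy3 signal was 9.92, 10.61, 9.64 and 9.09 on the total RNA arrays and 9.99, 10.64, 10.48 and 10.93 on the heavy polysome arrays, a difference of 0.70 with a 95% interval from -0.02 to 1.42 (adjusted p = 0.426, limma). For Bak1 it was 11.46, 11.30, 12.48 and 13.38 against 11.19, 11.44, 11.61 and 11.58, a difference of -0.70 (-1.62 to 0.23; adjusted p = 0.575, limma) that came from total RNA arrays 3 and 4. The brightest Bad probe, which does not match the strand of its gene, differed by -0.47 (-0.85 to -0.10, adjusted p = 0.248, limma). In Cy3 that probe was well above background on only 3 of the heavy polysome arrays. Bcl2l1 differed by -0.26 (-0.78 to 0.25) in control cells and by 0.06 (-0.51 to 0.64) in the Cy5 channel of Eif4g3 siRNA cells, and Mcl1 by -0.12 (-0.54 to 0.30) and -0.02 (-0.46 to 0.42). In the Cy5 channel 0 members were called as well, against 0.145% of all genes. These intervals are wide, as the plot of control cells shows, and leave room for differences of either sign for 9 of the 10 members.

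**Figure D3:**
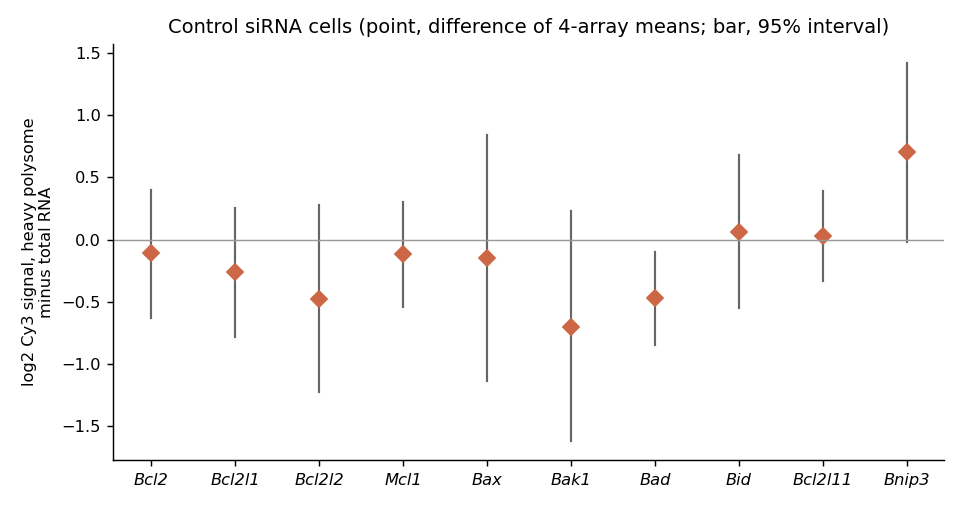
Difference in log2 Cy3 signal between heavy polysome and total RNA of control siRNA cells (y axis) for each member (x axis); points are differences of means over 4 arrays and bars 95% intervals. Bnip3 is highest at 0.70 and Bak1 lowest at -0.70. Bad, read by a dim probe that does not match the strand of its gene, alone has an interval that does not reach 0.

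For 3 members a probe was printed 10 times per array, which shows how precisely 1 array measures a ratio. For Bcl2l1 the SD among these spots was 0.07 and 0.05 on total RNA arrays 2 and 3 and 0.06 on heavy polysome array 4, but 0.53 on total RNA array 4, where spots ran from -0.49 to 0.90, and 0.39 on heavy polysome array 3, where they ran from 0.06 to 1.21. For Bax it reached 0.43 on heavy polysome array 3, and for Bcl2 0.27 on total RNA array 4. The same arrays led over all 151 tested probes with 10 spots, with median SDs of 0.33 and 0.34 against 0.04 to 0.13 on the other arrays. A ratio from 1 spot on these arrays, as for Bcl2l2, Mcl1, Bak1, Bid and Bnip3, is therefore less precise than elsewhere.

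With loess fitted separately in 16 blocks of each array, an alternative added after this spread was seen, the Bcl2l1 spots had SDs of 0.13 on both arrays. Bcl2l1 then read 0.31, 0.46, 0.50 and 0.46 on the total RNA arrays and 0.85, 0.61, 0.48 and 0.69 on the heavy polysome arrays, with means of 0.43 (adjusted p = 0.00959, limma) and 0.66 (adjusted p = 0.00107, limma), and the fractions overlapped. On heavy polysome array 3, Bid moved from -0.68 to -0.23, Bnip3 from -0.80 to -0.36, Bak1 from -0.77 to -0.29 and Bcl2l2 from -0.73 to -0.30. On total RNA array 4, Mcl1 moved from -0.86 to -0.38. The plus-strand Bad probe was called lower in total RNA under this setting (-0.26, adjusted p = 0.0497, limma over probes), and by the brightest probe Bcl2l1 remained the only member called.

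**Figure D4:**
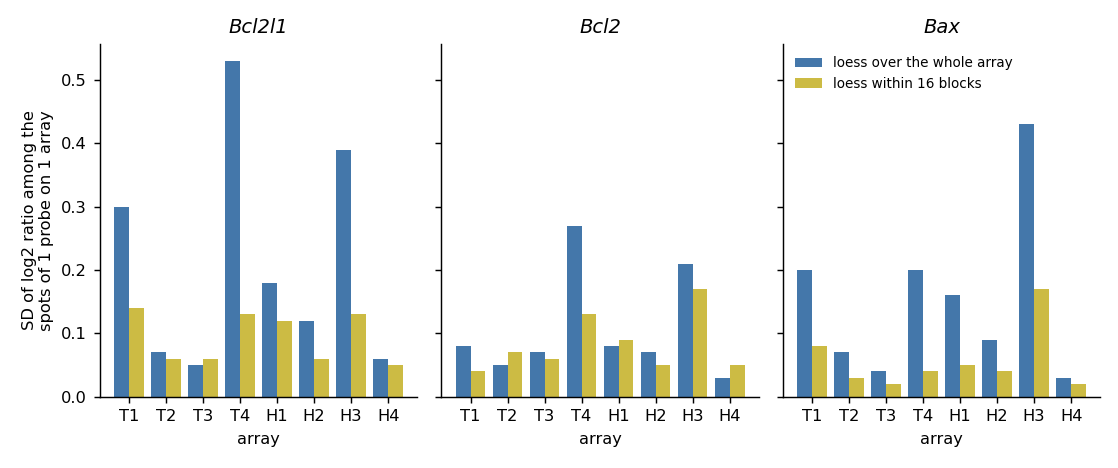
SD of the log2 ratio among the spots of 1 probe on 1 array (y axis) for the probes of Bcl2l1, Bcl2 and Bax that are printed 10 times, on each array (x axis; T, total RNA; H, heavy polysome RNA), with loess over the whole array (left bar) or within 16 blocks (right bar). For Bcl2l1 the SD on T4 goes from 0.53 to 0.13 and on H3 from 0.39 to 0.13.

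The genes that work with the family were taken from 7 lists with 102 genes, of which 91 were tested. In total RNA 2 were called higher and 3 lower, and in heavy polysome RNA 6 higher and 4 lower, beside 4.37% and 8.91% of all tested genes. None was called for the difference between fractions (10 at an unadjusted p under 0.05, limma, against 5.22% of all genes). These genes had median ratios of -0.08 (total RNA) and -0.03 (heavy polysome RNA), against -0.04 and 0.02 for all genes. The plot of pathway genes sets both fractions against each other.

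Among the other BCL2 family genes 10 of 18 were tested, and 1 was called. Pmaip1, which encodes the BH3-only protein NOXA, a partner of MCL1, read 0.79, 0.24, 0.06 and 0.15 on the total RNA arrays and 1.40, 0.76, 0.55 and 0.50 on the heavy polysome arrays. It was 1.74-fold higher in heavy polysome RNA (0.80 ± 0.42, SD, n = 4; adjusted p = 0.0193, limma) and was not called in total RNA (0.31 ± 0.33; adjusted p = 0.306). Its call was lost without heavy polysome array 2 or 4 (adjusted p up to 0.0618).

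Among the 13 caspase and apoptosome genes, all tested, Casp2, an initiator caspase, was lower in heavy polysome RNA (-0.51 ± 0.35, SD, n = 4; adjusted p = 0.0351, limma), a call kept in 3 of the 8 fits without 1 array.

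Birc5, which encodes survivin, a protein of the inhibitor of apoptosis family that also acts in mitosis, was higher in both fractions, at 0.59 ± 0.15 in total RNA (adjusted p = 0.0204) and 0.75 ± 0.23 in heavy polysome RNA (adjusted p = 0.00498; SD, n = 4 each, limma). It was 1 of 8 tested genes of its list, and its call in total RNA was lost without total RNA array 1, 2 or 3 (adjusted p up to 0.0864). Tnfaip3, which encodes the NF-kB inhibitor A20, was the only 1 of 11 death receptor genes called, in heavy polysome RNA (0.41 ± 0.24, SD, n = 4; adjusted p = 0.0433, limma), and was called in 1 of the 8 fits without 1 array. None of the 13 tested mitophagy and autophagy genes was called in any comparison in limma, with 2 at an unadjusted p under 0.05 in heavy polysome RNA (25.4% of all genes), 0 in total RNA (22.1%) and 1 for the difference (5.22%).

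Among 15 mitochondrial partners, Bcap29, an endoplasmic reticulum protein related to the BCL2-binding protein BAP31, had the lowest ratios. It read -1.71, -2.19, -2.13 and -2.84 on the total RNA arrays and -0.25, -2.04, -2.80 and -2.14 on the heavy polysome arrays, with means of -2.22 and -1.81 (adjusted p = 0.0125 and 0.0133, limma). Heavy polysome array 1 was far from the other 3. The calls were each kept in 6 of 8 fits without 1 array and lost without total RNA array 2 or 3 (in total RNA, adjusted p up to 0.0637) or heavy polysome array 2 or 4 (in heavy polysome RNA, up to 0.0687). Slc25a4, an adenine nucleotide carrier of the inner membrane, was higher in both fractions (0.62 ± 0.31 and 0.57 ± 0.31, SD, n = 4 each; adjusted p = 0.0439 and 0.0387, limma), each call kept in 3 of those 8 fits. With arrays centred on all non-control spots, Slc25a4 and Birc5 turned to -0.24 and -0.31 in total RNA, below 0 but above the median of -0.78. Ppif, the pore regulator cyclophilin D, was lower in total RNA (-0.52 ± 0.14, SD, n = 4; adjusted p = 0.0477, limma), kept in 2 of the 8 fits.

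Of 21 tested regulators of BCL2 proteins, Ppp3ca, the catalytic subunit of calcineurin, which dephosphorylates BAD, was lower in both fractions. It read -0.66, -0.77, -0.63 and -1.23 on the total RNA arrays and -0.70, -0.50, -0.83 and -0.76 on the heavy polysome arrays (1.77-fold and 1.62-fold lower; adjusted p = 0.00964 and 0.00766, limma), and both calls held without any 1 array. Stat3, a transcription factor known to act on Bcl2l1 and Mcl1, was lower in heavy polysome RNA (-0.90 ± 0.78, SD, n = 4; adjusted p = 0.0452, limma), with all 8 arrays below 0. It was not called in total RNA (-0.71 ± 0.24; adjusted p = 0.119), and the heavy polysome call was kept in 2 of 8 fits without 1 array. Bag1, a BCL2-binding co-chaperone, was higher in heavy polysome RNA (0.70 ± 0.55, SD, n = 4; adjusted p = 0.0479, limma), kept in 1 of those 8 fits, and read -0.07 ± 0.28 in total RNA.

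**Figure D5:**
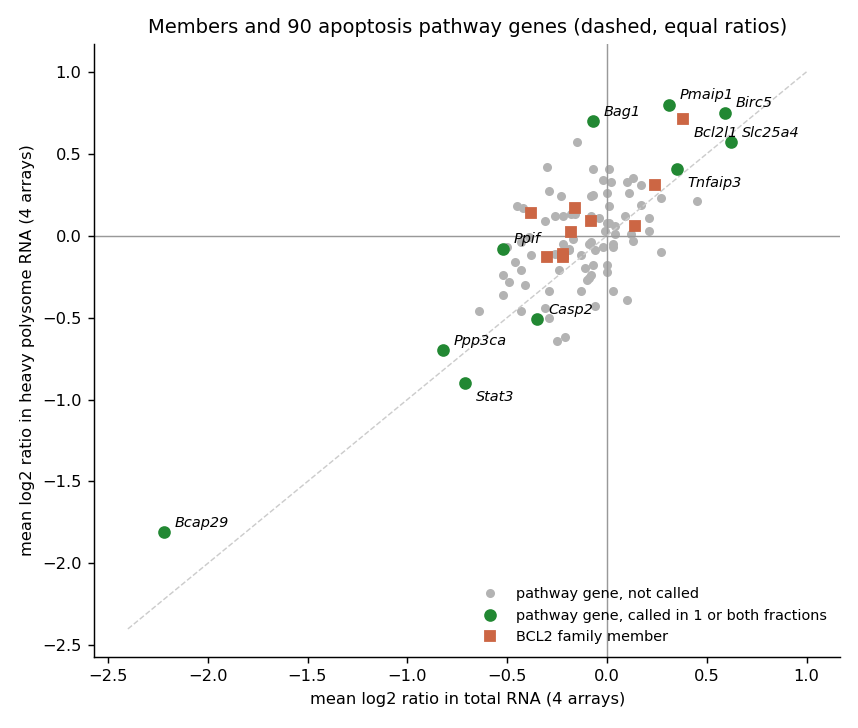
Mean log2 ratio over 4 arrays in total RNA (x axis) and heavy polysome RNA (y axis) for the 10 members (squares) and 90 of the 91 tested pathway genes (circles, filled green where called in at least 1 fraction); the dashed line marks equal ratios. Bcl2l1 lies at 0.38 and 0.71 near Pmaip1 and Birc5, and Bcap29 lies far below at -2.22 and -1.81.

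Among the genes whose ratios over the 8 arrays were most like those of the brightest Bcl2l1 probe, of 12809 compared, were Bod1 (Pearson r = 0.964) and Camk1 (r = 0.951). Bod1 averaged 0.20 ± 0.13 on the total RNA arrays and 0.76 ± 0.30 on the heavy polysome arrays, and Camk1 -0.41 ± 0.30 and 0.18 ± 0.35 (SD, n = 4 each). These are descriptions over arrays of both fractions that share dyes and normalisation, and they were picked as the highest of many.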

How the data were processed

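Per the file headers, the deposited scanner tables hold, as intensity, the mean signal of each spot and the median of its surroundings in both channels, from Agilent Feature Extraction 10.7.3.1, and 10.5.1.1 for total RNA array 2. Per the file headers they also hold a log10 ratio of Cy5 over Cy3 from processed signals. The deposited series matrix holds log2 ratios, which lay within 0.01 of the processed signals' for at least 99.3% of 41267 probes, with array medians from -0.21 to 0.31, so not centred. Probe coordinates are on mm8. RefSeq records of GRCm38.p6, used for names, matched 33026 of 41174 probes; gene parts (exon, intron) were not assigned.

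Signals were corrected with normexp (offset 50) and normalised by loess within each array (span 0.3); 131 to 241 spots per array marked as outliers were left out, and no spot was saturated. Spots of a probe were averaged, and the brightest probe represents a gene. limma 3.58.1 (R 4.3.3) fitted 1 coefficient per fraction over 8 arrays, two-sided, with Benjamini-Hochberg adjustment at 0.05; missing values among tested genes numbered 7, none of them in a member. Single channels were scaled with Aquantile. The number of arrays limits the precision. The scripts were tested on simulated data. Named are all members, Eif4g3, up to 6 called genes per pathway list with the smallest adjusted p, and 3 genes most correlated with each called member. The members and lists were chosen with earlier results of these data known. The ratios of same-numbered arrays of the fractions had correlations of 0.100, 0.662, 0.442 and 0.410. The highest correlation between fractions was 0.735, for total RNA array 3 with heavy polysome array 4. Numbers were not taken to pair samples. The 5 slides each held 1 fraction. Figures were drawn with matplotlib. Results on some genes that this rule names are not reported here.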

Additional observations from a re-analysis of the deposited data

Results flagged for a closer look

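In 108 sets of 4 arrays (1 member probe, 1 fraction, and the ratio, Cy3 or Cy5 log2 signal), 8 had an array whose gap to the nearest of the others was large against the whole range by Dixon's criterion; chance flags about 1 in 20 such sets. For the Bcl2 probe printed 10 times, total RNA array 1 had a ratio of 0.88 against 0.23 to 0.31 on the others, a Cy3 signal of 8.21 against 7.06 to 7.14 and a Cy5 signal of 9.09 against 7.36 to 7.37. The brightest Bcl2 probe had a Cy3 signal of 8.20 on heavy polysome array 1, against 7.61 to 7.64. The Bcl2l1 probe A_52_P510877 had a Cy5 signal of 6.73 on total RNA array 1, against 7.07 to 7.11. The second Mcl1 probe had a Cy5 signal of 9.61 on heavy polysome array 3, against 10.35 to 10.44. Bax had a Cy3 signal of 10.73 on total RNA array 2, against 12.50 to 12.74, and a Cy5 signal of 12.59 on heavy polysome array 4, against 11.94 to 12.03. Total RNA array 2 is the array read with the older Feature Extraction version, and whether that has a part in the Bax value was not tested.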

How the results depend on the processing

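The number of members called in total RNA, 1 in the fit reported, was 0 with arrays centred on the median of non-control spots or of tested genes, with a normexp offset of 10, with both channels required above background on all 8 arrays (9 members left), with all probes of a gene averaged, with each fraction fitted alone, and with heavy polysome arrays 2 and 4 as 1 replicate, and it was 4 without total RNA array 4 and heavy polysome arrays 1 and 3. In heavy polysome RNA it was 0 instead of 1 with either median centring and with all probes averaged. Leaving out 1 array gave 0 to 1 members in total RNA and always 1 in heavy polysome RNA. Bcl2l1 in total RNA turned to -0.51 with the non-control median and to -0.01 with probes averaged. The difference between fractions and the control-cell comparison had 0 members under every setting run. The cause of these changes was not tested. With the replicate number as a block, the counts were 1, 1, 0 and 0, the same calls as without it, and 637, 1285, 0 and 63 genes. Slide as a random block kept both Bcl2l1 calls. Its estimated correlation within slides was negative (-0.269), and it called more genes than the fit reported, so it was no stricter a check.

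Counts over all genes moved more: 633 in total RNA became 0 and 209 with the median centrings, 1501 with processed signals, 1474 with slide as a block, 1660 with loess in blocks, 297 with arrays 2 and 4 joined, 3167 without the 3 arrays, and 46 to 1324 without 1 array. The 1290 of heavy polysome RNA became 0, 196, 2049, 2591, 2515, 434, 2376 and 337 to 1537 in that order, and 382 with fractions fitted alone. The 337 of control cells became 63 with the replicate block, 21 in Cy5, and 75 to 335 without 1 array. Signal close to background limits the Bad probes and left 1 probe each of Bcl2 and Bcl2l11 without a test.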
